A study of Mus musculus with 6 samples.

Results

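The genes described here encode 10 enzymes of bile acid synthesis, namely Cyp7a1, Cyp8b1, Cyp27a1, Cyp7b1, Hsd3b7, Akr1d1, Amacr, Slc27a5, Baat and Acox2. They were taken by name from the 23284 genes counted in the series, and 10 of the 10 passed the filter on low counts along with 12559 genes in all. Liver RNA was sequenced from 3 vehicle-treated and 3 FGF19-treated mice. All mice were C57BL/6 and 8 weeks old, had no genetic change in the labels, and were fasted overnight. They then received vehicle or FGF19 at 1 mg/kg and stayed without food for 6 h. The methods describe the animals as male. FGF19 is the human counterpart of mouse FGF15, so the treated mice received the hormone of another species.

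Bile acids are made from cholesterol in hepatocytes. The classic pathway starts with CYP7A1, which adds a hydroxyl group to the cholesterol ring, and the alternative pathway starts on the side chain with CYP27A1 and goes on with CYP7B1. Later steps rebuild the ring, shorten the side chain in peroxisomes and join the product to taurine or glycine. After a meal, bile acids in the ileum induce FGF15/19, which travels to the liver and acts through the receptor FGFR4 with its coreceptor β-Klotho. Repression of Cyp7a1 by this route is a known feedback on bile acid output, and the present comparison asks what FGF19 did to the whole set of enzymes.

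The total count was between 18994654 and 22920056 per library, and the lowest count of any of the 10 genes was 201, for Cyp7a1 in FGF19 replicate 1. The liver label was checked against 6 hepatocyte markers. Their summed level was between 85870 and 88010 CPM (counts scaled to a common library size, with edgeR's TMM factors) in vehicle-treated mice and between 79570 and 84200 CPM in FGF19-treated mice, so the ranges did not overlap, although none of the 6 genes passed the test below. Alb made up most of that sum, at a mean of 69308 CPM with vehicle and 66347 CPM with FGF19, and its groups overlapped. The log2 fold changes of the 6 lay between -0.36 for Ass1 and 0.12 for Apob. In bulk tissue, fewer cells of a type and less RNA per cell cannot be told apart. Among markers of other cells, 1 of 4 Kupffer cell genes was called higher (Marco, 6.15 ± 2.94 CPM with vehicle and 30.2 ± 2.01 CPM with FGF19, SD, n = 3), 1 of 5 stellate cell genes was called lower (Colec11, 32.5 ± 5.65 CPM with vehicle and 19.3 ± 0.814 CPM with FGF19, SD, n = 3), and none of 5 endothelial, 5 cholangiocyte and 4 tested T and B cell genes was called. The 4 Kupffer cell genes summed to between 132.7 and 169.0 CPM with vehicle and between 130.7 and 157.3 CPM with FGF19. These sums include Marco, and the log2 fold changes of the other 3, none of which passed the test, were -0.54 for Vsig4, -0.29 for Clec4f and -0.22 for Cd5l. The 5 stellate cell genes summed to between 211.4 and 289.5 CPM with vehicle and between 193.7 and 240.4 CPM with FGF19. The 4 neutrophil genes summed to between 0.572 and 2.13 CPM with vehicle and between 3.63 and 5.19 CPM with FGF19, and S100a9, 1 of the 2 tested, was called higher. No marker that the files hold was at 0 in every library. The part of these shifts in the results below was not tested.

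RefSeq start-site windows were at hand for 5 of the 10 genes. The 250 bases before the start are printed for Cyp8b1 and Akr1d1, which fell after FGF19, and for Hsd3b7, whose values lay on the other side. Each window was found once in mm9 by exact match and ends directly before the start of the gene in the count files. They lie at chr9:121825424-121825673 on the minus strand, chr6:37479923-37480172 on the plus strand and chr7:134943873-134944122 on the plus strand. Capitals mark CG dinucleotides, and in Cyp8b1 also the letters CAAAGTCCA, a form of the HNF4 site, and the TATA box TATAAA.
Cyp8b1: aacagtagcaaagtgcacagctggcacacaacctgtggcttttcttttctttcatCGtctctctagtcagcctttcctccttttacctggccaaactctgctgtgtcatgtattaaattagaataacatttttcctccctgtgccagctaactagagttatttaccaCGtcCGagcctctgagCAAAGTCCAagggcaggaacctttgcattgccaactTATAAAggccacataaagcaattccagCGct
Akr1d1: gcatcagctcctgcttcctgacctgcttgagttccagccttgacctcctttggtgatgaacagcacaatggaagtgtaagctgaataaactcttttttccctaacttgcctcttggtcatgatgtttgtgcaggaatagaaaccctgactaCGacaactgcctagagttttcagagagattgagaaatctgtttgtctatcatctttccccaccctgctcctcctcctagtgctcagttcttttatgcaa
Hsd3b7: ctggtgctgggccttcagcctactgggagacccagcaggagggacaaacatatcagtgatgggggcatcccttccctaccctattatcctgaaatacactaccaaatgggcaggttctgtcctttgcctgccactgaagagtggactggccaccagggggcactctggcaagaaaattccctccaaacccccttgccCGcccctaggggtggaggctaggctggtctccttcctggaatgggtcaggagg

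CG dinucleotides are the usual sites of DNA methylation, which was not measured in these libraries. There were 4 in Cyp8b1, 1 in Akr1d1 and 1 in Hsd3b7, where the median of 32536 mouse windows of this length was 6. Of the windows not printed, that of Cyp27a1 held 7 and those of Acox2 held 1 and 3. The HNF4 letters stood at -67 to -59 of Cyp8b1, counted back from -1 at the base before the start, and the TATA box at -31 to -26. Both strands were searched, and the HNF4 letters occurred in 0.387% and TATAAA in 12.3% of all windows. The letters TCAAGGNCA, a form of the site of NR5A2 (LRH-1), were searched too and occurred in 1.37% of all windows and in none of these 3. That search fixed T as the first letter. The Cyp8b1 window holds CCAAGGGCA, which differs from the searched form only there and overlaps the HNF4 letters. The share of all windows with C as the first letter was not counted. CCAAT, the core of the CCAAT box, was in 33.8% of all windows and in none of these 3, but it was found for Cyp27a1 and Acox2. A match of letters is a description of the window and says nothing of binding. The coming values for Cyp8b1, Akr1d1 and Hsd3b7 are counts over all exons of each gene and do not tell which start was used.

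FGF19 lowered 3 of the 10 enzyme genes at an adjusted p under 0.05, and these are Cyp7a1, Akr1d1 and Cyp8b1. By the same rule 2.84% of all genes tested were lower. Genes were tested with edgeR's quasi-likelihood fit, and p-values were adjusted after Benjamini and Hochberg over all 12559. In this test none of the 10 was higher at that threshold, where 4.56% of all genes were, while DESeq2 and edgeR's likelihood ratio test each called 1, Cyp7b1. At the study's threshold of p under 0.01 the same 3 genes were lower (4.98% of all genes) and Cyp7b1 was higher (6.20% of all genes). At an unadjusted p under 0.05 there were 6 lower and 2 higher, against 11.3% and 11.6% of all genes. The median log2 fold change of the 10 genes was -0.21, and that of all genes tested was -0.00076.

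**Figure D1:**
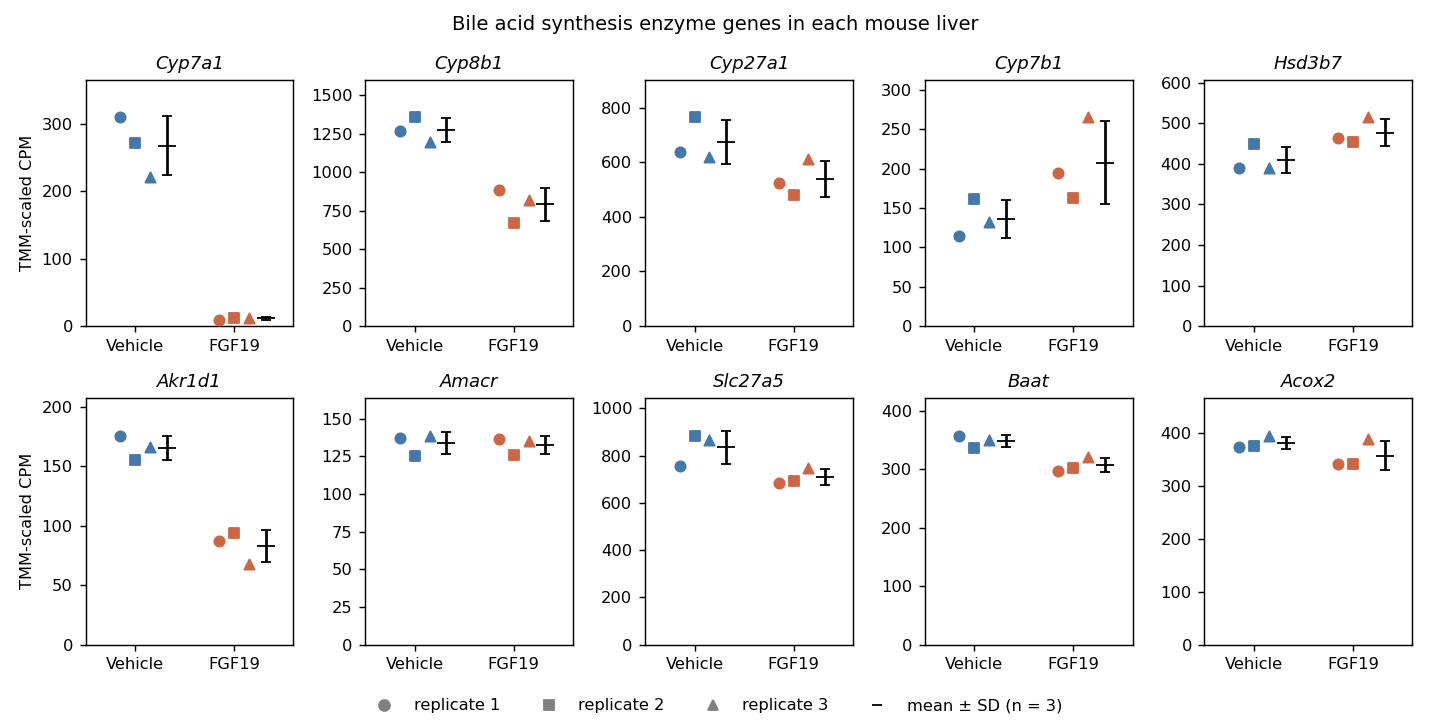
TMM-scaled CPM (linear axes from 0) of the 10 enzyme genes in each of the 3 vehicle-treated (blue) and 3 FGF19-treated (orange) mice. Marker shapes give the replicate number and black bars the mean ± SD (n = 3). Cyp7a1 drops from at least 221.9 CPM to at most 12.4 CPM, while the Amacr values of both groups cover the same range.

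The plot of CPM by mouse shows the enzymes in 3 patterns. For 6 genes the 3 FGF19 values all lay under the lowest vehicle value, which was so for 13.8% of all genes tested. In 2 genes, Cyp7b1 and Hsd3b7, the 3 FGF19 values all lay over the highest vehicle value, which was so for 14.5% of all genes. Amacr and Acox2 overlapped between the groups.

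Cyp7a1, the rate-limiting enzyme of the classic pathway, lies on chromosome 4 of mm9 from 6192759 to 6202778 on the minus strand and has 6 exons. It was at 309.8, 272.0 and 221.9 CPM in vehicle replicates 1, 2 and 3. In FGF19 replicates 1, 2 and 3 it was at 9.35, 12.4 and 12.4 CPM. The groups were far apart, and the coefficient of variation between mice was 16.5% with vehicle and 15.4% with FGF19. Its log2 fold change was -4.56 (SE 0.166, 95% confidence interval -4.93 to -4.19, adjusted p = 9.41e-07 in edgeR), a 23.5-fold fall. This was the lowest log2 fold change of all 12559 genes, and the gene ranked 3 among them by p-value. With the fewest reads of any value here, 201 counts, the exact Poisson 95% interval was 8.10 to 10.7 CPM, which covers counting error only. Mates were counted separately, and the interval takes them as independent reads, so it is too narrow where both mates were counted.

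Cyp8b1, the sterol 12α-hydroxylase that directs synthesis to cholic acid, consists of 1 exon on chromosome 9 from 121823474 to 121825423. Its values were 1271, 1357 and 1197 CPM with vehicle. With FGF19 they were 881.3, 670.4 and 822.1 CPM, each below the lowest vehicle-treated mouse. The log2 fold change of -0.69 (SE 0.116, interval -0.95 to -0.43, adjusted p = 0.00855 in the same edgeR test) is a level 37.9% lower. Its mean dropped by 483.5 CPM, more than that of any other of the 10 genes, while the mean of Cyp7a1 dropped by 256.5 CPM.

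Akr1d1 encodes the 5β-reductase that reduces the double bond of the ring in both pathways. It lies on chromosome 6 from 37480173 to 37518815 and has 9 exons. The vehicle-treated mice were at 175.7, 155.3 and 165.9 CPM and the FGF19-treated mice at 86.99, 93.5 and 68.0 CPM. No FGF19-treated mouse came near the vehicle range. The level fell by 1.00 on the log2 scale (SE 0.122, interval -1.27 to -0.73, adjusted p = 0.00161 in the same edgeR test), or 2.00-fold. These 3 genes were called lower with each of the 6 libraries left out in turn and under every other alternative tried, with adjusted p between 2.59e-06 and 0.0319 for Cyp8b1 and between 5.74e-11 and 0.0124 for Akr1d1.

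The genes that serve the start of the alternative pathway gave values on both sides. Cyp27a1, the mitochondrial sterol hydroxylase that oxidizes the side chain in both pathways, lies on chromosome 1 from 74760148 to 74784464. It was at 638.4, 764.9 and 619.5 CPM with vehicle and at 525.2, 479.5 and 610.5 CPM with FGF19. The groups did not overlap, but FGF19 replicate 3 and vehicle replicate 3 were close and their exact Poisson intervals crossed. Its log2 fold change was -0.32 (SE 0.120, adjusted p = 0.142 in the edgeR test). Without FGF19 replicate 3 it was -0.42 with an adjusted p of 0.0339, the only fit in which it was called.

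Cyp7b1, the oxysterol 7α-hydroxylase, lies on chromosome 3 from 17971950 to 18143338. It was at 114.3, 162.0 and 131.8 CPM in vehicle replicates 1, 2 and 3 and at 194.9, 162.3 and 265.2 CPM in the FGF19 replicates. The groups were separated only by the small gap between the replicates numbered 2. The log2 fold change was 0.61 (SE 0.182, interval 0.20 to 1.02, adjusted p = 0.0783 in edgeR's quasi-likelihood fit). The adjusted p was 0.0135 with DESeq2 and 0.0232 with the likelihood ratio test, and between 0.0135 and 0.220 over all alternatives. With FGF19 replicate 3 left out the log2 fold change was 0.40. It had the widest spread between mice of the 10 genes, with a coefficient of variation of 17.7% with vehicle and 25.3% with FGF19.

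Hsd3b7 encodes the dehydrogenase that acts on the ring after the first hydroxylation, and lies on chromosome 7 from 134944123 to 134947316. It was at 391.0, 448.1 and 391.0 CPM with vehicle and at 463.4, 454.1 and 515.2 CPM with FGF19. Every FGF19-treated mouse was above the vehicle-treated mice, by little in the case of vehicle replicate 2. The log2 fold change was 0.22 (SE 0.0957, interval 0.0052 to 0.43, adjusted p = 0.208 in the edgeR test), and it did not pass the threshold in any alternative.

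**Figure D2:**
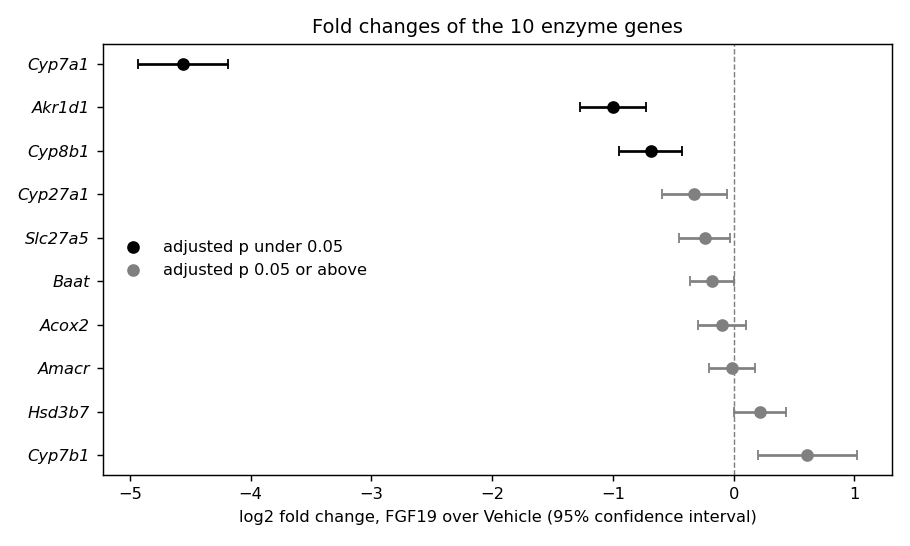
Log2 fold change of each enzyme gene, FGF19 over vehicle, with its 95% confidence interval from edgeR's quasi-likelihood fit (3 mice per group). Black points are genes with an adjusted p under 0.05. Cyp7a1 at -4.56 stands apart from Akr1d1 and Cyp8b1, and the other 7 genes lie between -0.32 and 0.61.

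None of the 4 genes of side-chain shortening and conjugation passed the test, and their log2 fold changes lay between -0.24 and -0.015. Slc27a5, which joins bile acids to coenzyme A, lies on chromosome 7 from 13573696 to 13583541. It was at 755.8, 884.1 and 866.9 CPM with vehicle and at 684.2, 693.2 and 746.4 CPM with FGF19, a log2 fold change of -0.24 (SE 0.0950, adjusted p = 0.168 in the edgeR test). The highest FGF19-treated mouse was next to the lowest vehicle-treated mouse. Baat, which joins the activated bile acid to taurine or glycine, lies on chromosome 4 from 49502290 to 49519430. It was at 357.4, 336.8 and 350.8 CPM and at 297.5, 303.1 and 320.4 CPM, a log2 fold change of -0.18 (SE 0.0809, adjusted p = 0.216). Its groups did not overlap and its mice differed least of the 10 genes, with a within-group SD of 0.0501 on the log2 scale.

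Acox2, the peroxisomal oxidase of the branched side chain, lies on chromosome 14 from 9058025 to 9091533. It was at 372.7, 375.8 and 394.5 CPM with vehicle and at 341.0, 342.0 and 388.3 CPM with FGF19, where replicate 3 fell inside the vehicle range. Its log2 fold change was -0.093 (interval -0.29 to 0.10, adjusted p = 0.588 in the edgeR test). Amacr, the racemase that prepares the side chain for oxidation, lies on chromosome 15 from 10911511 to 10926379. It was at 137.2, 125.5 and 138.6 CPM with vehicle and at 136.5, 125.6 and 135.1 CPM with FGF19, so the groups covered the same range. Its log2 fold change was -0.015 (interval -0.20 to 0.17, adjusted p = 0.938 in the edgeR test). As a fold, this interval runs from 0.869 to 1.13.

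**Figure D3:**
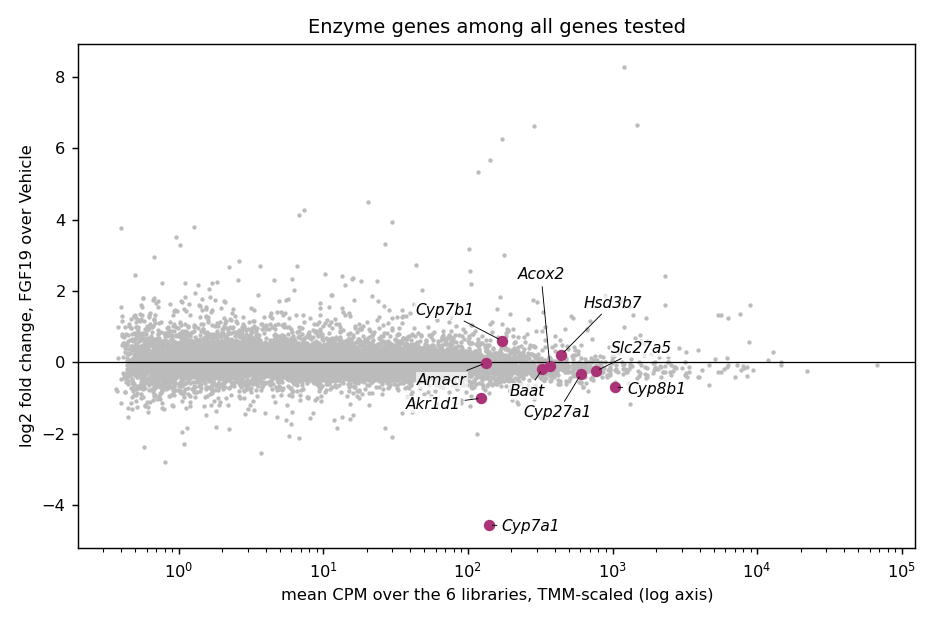
Log2 fold change (FGF19 over vehicle) against mean TMM-scaled CPM (log axis) for the 12559 genes tested, grey, with the 10 enzyme genes in purple. All 10 lie among abundant genes, at or above percentile 91.6 of mean CPM, and Cyp7a1 is the lowest point of the plot.

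The enzymes were next set side by side per exon length, as RPKM (CPM divided by exon length in kilobases, TMM-scaled). In vehicle-treated mice Cyp8b1 was highest at 653.8 ± 41.2 RPKM (SD, n = 3). Slc27a5 and Cyp27a1 followed at 358.8 ± 29.9 and 356.7 ± 41.8 RPKM and overlapped. Hsd3b7, Baat and Acox2 came next at 224.9, 179.0 and 145.0 RPKM and were apart from each other. Cyp7a1 was at 64.2 ± 10.6 RPKM (SD, n = 3) and overlapped with Cyp7b1 at 62.8 ± 11.1 RPKM, which overlapped with Akr1d1 at 61.4 ± 3.79 RPKM. Amacr was lowest by mean at 52.0 RPKM, apart from Akr1d1 but overlapping with Cyp7a1 and Cyp7b1.

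After FGF19 the upper part of this order was the same by mean, with Cyp8b1 at 405.8 ± 55.8 RPKM (SD, n = 3) still above every other gene in every mouse. Slc27a5, Cyp27a1 and Hsd3b7 stood close at 304.0, 284.9 and 262.0 RPKM, and each overlapped with the next. At the lower end Cyp7b1 was at 95.8 ± 24.3, Amacr at 51.4 ± 2.30, Akr1d1 at 30.7 ± 4.90 and Cyp7a1 at 2.73 ± 0.420 RPKM (SD, n = 3), with no overlap between neighbours. The 3 genes called lower thus started from different levels, and only Cyp7a1 reached a level far under the rest.

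**Figure D4:**
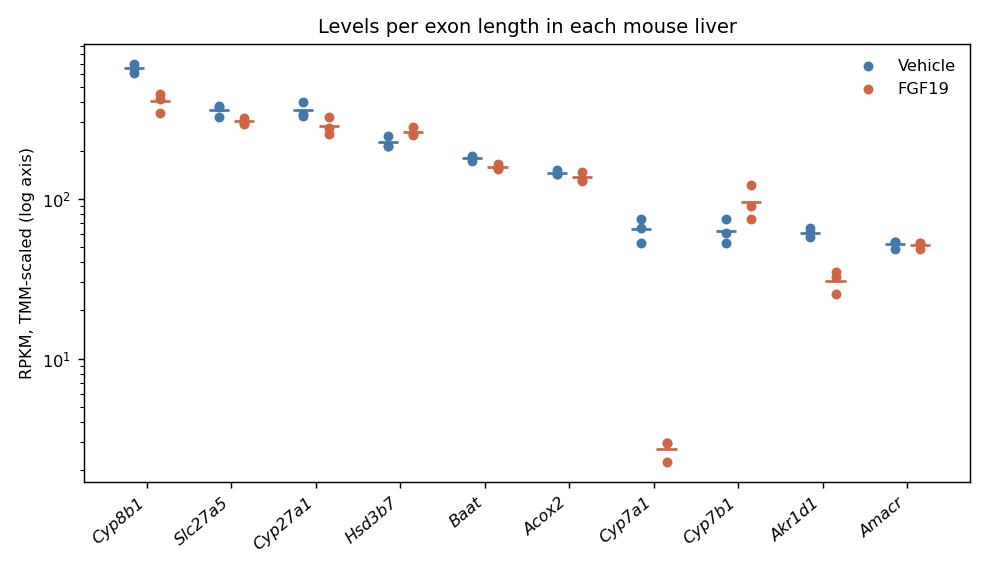
TMM-scaled RPKM (log axis) of each enzyme gene in the 3 vehicle-treated (blue) and 3 FGF19-treated (orange) mice, ordered by the vehicle mean. Points are mice and short lines group means. Cyp8b1 is highest in both groups, and Cyp7a1 moves from 64.2 to 2.73 RPKM.

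The difference between Cyp7a1 and its partners was examined as a ratio of RPKM within each mouse. The ratio of Cyp8b1 to Cyp7a1 was 8.77, 10.7 and 11.5 in vehicle-treated mice and 201.7, 115.6 and 142.3 in FGF19-treated mice. The ratio of Cyp7b1 to Cyp7a1, the hydroxylase of the alternative over that of the classic pathway, was 0.710, 1.15 and 1.14 with vehicle and 40.2, 25.2 and 41.3 with FGF19. Cyp27a1 over Cyp7a1 was 4.55, 6.21 and 6.16 with vehicle and 124.0, 85.3 and 109.0 with FGF19. All 3 ratios were apart between the groups in every mouse.

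On the log2 scale these ratios differed by 3.86, 5.15 and 4.23 between FGF19 and vehicle, with SDs between 0.204 and 0.406 within groups (n = 3). The two-sided exact permutation p was 0.1 for each of the 3, which is the smallest that 3 mice against 3 can give. The 3 ratios share Cyp7a1 and are not independent of each other. Cyp7a1 had the lowest log2 fold change of all genes tested, so the ratio of any other gene to it would rise on average. The p-values thus add nothing on the 3 partners beyond the fall of Cyp7a1.

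**Figure D5:**
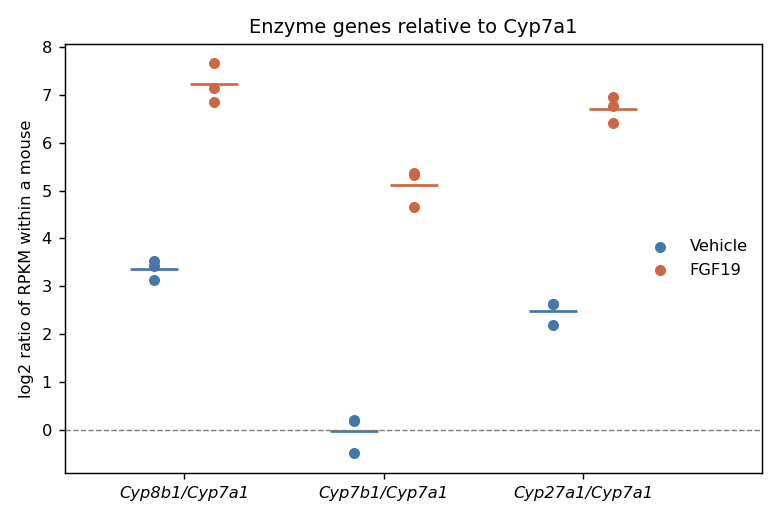
Log2 ratio of RPKM within each mouse for Cyp8b1, Cyp7b1 and Cyp27a1 over Cyp7a1. Points are mice (blue vehicle, orange FGF19, 3 each), short lines group means, and the dashed line marks equal levels. Cyp7b1 and Cyp7a1 are near equal with vehicle, at a mean of -0.034, and 5.12 apart with FGF19.

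Together the 10 genes took between 0.448% and 0.485% of the counts of a vehicle-treated mouse and between 0.343% and 0.374% of those of an FGF19-treated mouse. Cyp8b1 alone made up 26.7% to 28.1% of their summed CPM with vehicle and 20.1% to 24.3% with FGF19. Among the vehicle-treated mice no single mouse was high throughout, since replicates 1, 2 and 3 held the highest value in 3, 5 and 2 of the genes. Among the FGF19-treated mice replicate 3 held the highest value in 6 and the lowest in 1, Akr1d1.

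Other genes of the pathway were read from a list of 14, which holds peroxisomal, transport, oxysterol and electron-transfer genes. Of the 13 that passed the filter 1 was lower and 1 was higher at an adjusted p under 0.05, where 2.84% and 4.56% of all genes tested were. Their median log2 fold change was -0.19, and that of all genes was -0.00076. Cyp2c70, the mouse enzyme that makes muricholic acids, was at 51.2, 48.1 and 35.1 CPM with vehicle and at 94.5, 115.8 and 111.7 CPM with FGF19. It rose by 1.26 on the log2 scale (SE 0.145, adjusted p = 0.00117 in the edgeR test), and because it belongs to the large Cyp2c family its share of reads is uncertain. Fdx1, the ferredoxin that passes electrons to mitochondrial P450 enzymes such as CYP27A1, was at 53.6, 52.7 and 56.7 CPM with vehicle and at 41.5, 40.2 and 44.3 CPM with FGF19. It fell by 0.37 (SE 0.0844, adjusted p = 0.0292 in the edgeR test). This call was lost without vehicle replicate 1, 2 or 3 or FGF19 replicate 1 or 2, with an adjusted p between 0.0671 and 0.136. Ch25h, which makes an oxysterol, had no read in any vehicle-treated mouse and at most 0.230 CPM with FGF19, and it was not tested.

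Of 10 genes for receptors and transcription factors known to act on Cyp7a1 or Cyp8b1, 1 was higher and 1 was lower at an adjusted p under 0.05, where 4.56% and 2.84% of all genes tested were. The median log2 fold change of the 10 was -0.0091. Nr0b2, the repressor SHP, was at 13.9, 21.8 and 30.9 CPM with vehicle and at 64.5, 54.5 and 54.8 CPM with FGF19, a rise of 1.38 on the log2 scale (SE 0.232, adjusted p = 0.00823 in the edgeR test). Nr1h4, the bile acid receptor FXR, was at 162.7, 140.3 and 149.1 CPM with vehicle and at 84.9, 93.1 and 117.3 CPM with FGF19, and fell by 0.61 (SE 0.125, adjusted p = 0.0185 in the edgeR test). The Nr1h4 call was lost without vehicle replicate 1 or 3 or FGF19 replicate 1 or 2, with an adjusted p between 0.0683 and 0.0864. Fgfr4 and Klb, which encode the receptor and β-Klotho, were among the 8 that did not pass and are named for their role. Their log2 fold changes were 0.11 and -0.43, with adjusted p of 0.583 and 0.0905 in the edgeR test, and Klb was called lower with the likelihood ratio test and without vehicle replicate 2. Hnf4a and Nr5a2 encode factors whose letters were searched in the start-site windows. Hnf4a had a log2 fold change of -0.31 with groups that did not overlap (adjusted p = 0.120 in the edgeR test). That of Nr5a2 was -0.0012 with overlapping groups (adjusted p = 0.997 in the edgeR test). Without FGF19 replicate 3, Hnf4a was called lower and Ppargc1a, a coactivator, was called higher.

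Over the 6 libraries the 3 genes nearest to the profile of Cyp7a1 among 11658 others with a mean of at least 1 CPM were Clec2h, Keg1 and Socs2. Their root mean square differences from it were 1.16, 1.26 and 1.28 log2 units after centring each gene on its own mean. Their log2 fold changes of -2.54, -2.09 and -2.12 had to be smaller in size than that of Cyp7a1, which was the lowest of all genes tested. The likeness is a description, with no test.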

How the data were processed

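Read counts per gene were used from the livers of 3 vehicle-treated and 3 FGF19-treated mice, grouped by the sample titles. The methods give 1 library per biological sample, taken here as 1 mouse each; if samples shared a mouse, the p-values would measure technical spread. The authors aligned the reads to mm9 with STAR (2.5.3a in the submitters' processing notes, other versions in the methods and reporting form) and deposited the raw count of each gene from featureCounts 1.5.2. Per the file headers, strand was not used, mates were counted separately and multi-mapped reads were not counted. No exon base of the 10 genes was shared with another gene of the files. A deposited table of the authors' own comparison (fold changes, p-values) was not used.

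The analysis used edgeR 4.0.16 under R 4.3.3, with filterByExpr, TMM, and the quasi-likelihood test without covariates. The study's methods name an edgeR pipeline without naming the test. SEs were derived from the log2 fold change and F statistic. RPKM used the exon length in the files. Chi-square statistics per degree of freedom between 8.25 and 39.4 within groups showed no duplicated library. On simulated counts with 12478 genes tested, edgeR recovered 100 of 100 genes changed by 1 and 100 of 100 changed by 2 on the log2 scale. It also called 6 unchanged genes. The simulation gave all genes the same dispersion and changed only genes above a minimum level. Changes smaller than 1, such as those of most members, were not simulated. Alternatives were DESeq2 1.42.0, limma-voom (limma 3.58.1), the likelihood ratio test, no TMM scaling, 2 other filters, a replicate block, a pseudocount of 0.1 RPKM for the ratios, and each library left out. All 10 members were named, with the list genes past an adjusted p of 0.05 and the 3 genes most like Cyp7a1. Some other list genes were named outside this rule, for their role, for their lack of reads or for a call in an alternative fit. The members and lists were chosen with earlier results of these data known. Start-site windows came from RefSeq (GRCm38.p6) and were placed on mm9 by exact match to its sequence. The cell type lists held hepatocyte, Kupffer, endothelial, stellate, cholangiocyte, neutrophil, and T and B cell genes, of which Adgre1 and Ly6g had no row.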

Additional observations from a re-analysis of the deposited data

How the results depend on the processing

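The count of 3 enzyme genes lower at an adjusted p under 0.05 was 3 in each alternative except the fit without FGF19 replicate 3, which gave 4, and the range over the fits that left out a library was 3 to 4 at p under 0.01 too. The count of higher genes at an adjusted p under 0.05 was 0 and became 1 with DESeq2 and 1 with the likelihood ratio test. At p under 0.01 it was 1, and between 0 and 1 with a library left out, being 0 without vehicle replicate 1 or 3 or FGF19 replicate 1 or 3. The log2 fold change of Cyp7a1 was between -4.67 and -4.43 over all alternatives and that of Amacr changed sign with a library left out (-0.059 to 0.030). With a library left out the median over the 10 genes was between -0.24 and -0.19, and the log2 ratio of Cyp8b1 to Cyp7a1 was between 3.64 and 4.04.

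The deviations of same-numbered mice correlated between -0.242 and -0.0435 across 11659 genes, and those of differently numbered mice between -0.149 and 0.278. This gave no sign that the replicate numbers pair the mice, but with 3 mice per group it cannot exclude a pairing. With the replicate block the count of lower genes was 3, the log2 fold change of Cyp7a1 was -4.55, and no member's call changed. The Fdx1 call was lost (adjusted p = 0.0970). For each member the counting error at its lowest count, taking mates as independent reads, was under the coefficient of variation between mice. The number of mice, more than depth, thus limits the precision. Among the other pathway genes 1 was lower, but 3 with DESeq2 (Abcd3, Fdx1 and Por) and 2 (Fdx1 and Por) with limma-voom, with the likelihood ratio test, without TMM scaling and without the filter. Among the regulators 1 was lower and 1 higher, and with a library left out between 0 and 2 were lower and between 1 and 2 higher. Over all genes 357 were lower and 573 higher, against 164 and 370 with the replicate block and 579 and 780 with the likelihood ratio test, and with a library left out between 91 and 926 lower and between 236 and 1015 higher.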
